A study of Mus musculus with 18 samples.

Results

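The 37 genes described here encode Wnt ligands, their receptors and their secreted regulators. They were taken by gene symbol from a list, and 37 of 37 were found among the 54532 genes of the tables. They comprise 12 Wnt ligands, the 2 proteins Porcn and Wls that lipidate and release ligands, 10 Frizzled receptors, the co-receptors Lrp5 and Lrp6, 4 R-spondins and 7 secreted inhibitors. The study sequenced poly(A) RNA of C57BL/6 mice in bulk, in 18 libraries. Colitis libraries came from distal colon, a piece of 0.5 cm taken 0.5 cm from the anus, of mice that drank 2.5% dextran sulfate sodium (DSS), which injures the colon epithelium, for 5 days and plain water for 2 days. Tumour libraries came from colorectal tumours induced with azoxymethane, a carcinogen, and DSS. In each tissue there were wild-type (WT) and knockout (KO) mice of an Il1f5 line (Il1f5+/+ and Il1f5-/-) and of an Il1f9 line (Il1f9+/+ and Il1f9-/-). Il1f5 encodes the antagonist of the IL-36 receptor and Il1f9 an agonist of it. Colitis libraries of the Il1f5 line numbered 3 a genotype, and each of the other 6 groups held 2. No group was free of DSS, and neither age nor sex is used here.

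Wnt proteins are lipid-modified by Porcn, carried to the cell surface by Wls and bound by a Frizzled together with Lrp5 or Lrp6. Without that signal beta-catenin is degraded, and with it beta-catenin enters the nucleus and joins TCF/LEF factors at target genes such as Axin2. In the intestine this pathway maintains the stem cells of the crypt, and its activation is a common early step in colorectal tumours. R-spondins, which come mainly from cells beneath the epithelium, bind Lgr receptors and keep Frizzleds on the surface by removing the ubiquitin ligases Znrf3 and Rnf43. The secreted inhibitors bind the ligands (Wif1 and the Sfrp family) or the co-receptors (Dkk2), whereas Dkk3 is a divergent member of the Dkk family.

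Library totals ran from 16621611 to 23776174 counts, and mitochondrial genes took 2.01 to 3.56% of them. The counts of Il1f5 went against the labels. Il1f5 was counted 36, 43 and 45 times in the colitis libraries labelled Il1f5 KO and 211 and 102 times in the tumour libraries labelled Il1f5 KO, but 0 times in each other library. These libraries are therefore called labelled Il1f5 KO throughout, and directions drawn from them hold for the labels only. Il1f9 was counted 9 and 1 times in the colitis Il1f9 KO libraries against 232 and 90 in WT, and 2 and 0 times in the tumours against 1652 and 752. Levels below are CPM, counts scaled to a common library depth with TMM factors, unless given as the authors' FPKM, which is per gene length. A gene was called where edgeR's quasi-likelihood test gave a Benjamini-Hochberg adjusted p under 0.05 over all genes tested. The labels do not say whether each library is a separate animal, so p-values measure the spread between these libraries.

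To show the DNA before the start sites of members that differed between tissues, 5 windows are printed. They were taken among members with a RefSeq window of at least 200 bases before the gene start, and are those of the 3 members called higher in tumours by the largest fold, Wif1, Wnt6 and Dkk2, and of the 2 called lower by the largest fold, Rspo1 and Sfrp5. They are from RefSeq on GRCm38.p6, 5′ to 3′ on the gene's strand, and end at the base before the gene start in the tables. Capitals mark the TATA word TATAAA on either strand.

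Wnt6 (chr1:74771642-74771891, plus strand): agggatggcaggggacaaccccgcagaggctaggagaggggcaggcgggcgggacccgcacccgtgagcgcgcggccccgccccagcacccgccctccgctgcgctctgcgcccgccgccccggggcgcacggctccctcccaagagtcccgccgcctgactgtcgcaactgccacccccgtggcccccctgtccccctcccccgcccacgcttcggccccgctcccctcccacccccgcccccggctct
Wif1 (chr10:121033754-121033959, plus strand): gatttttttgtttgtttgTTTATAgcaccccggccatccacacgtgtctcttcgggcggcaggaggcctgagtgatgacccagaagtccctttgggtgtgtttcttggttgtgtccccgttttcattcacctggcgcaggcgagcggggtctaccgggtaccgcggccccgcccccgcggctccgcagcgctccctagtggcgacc
Dkk2 (chr3:132085042-132085291, plus strand): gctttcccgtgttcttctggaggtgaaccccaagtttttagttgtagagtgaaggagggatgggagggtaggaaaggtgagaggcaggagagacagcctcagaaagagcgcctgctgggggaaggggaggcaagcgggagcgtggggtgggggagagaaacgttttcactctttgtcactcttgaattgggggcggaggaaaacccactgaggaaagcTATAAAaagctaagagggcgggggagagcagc
Rspo1 (chr4:124986180-124986429, plus strand): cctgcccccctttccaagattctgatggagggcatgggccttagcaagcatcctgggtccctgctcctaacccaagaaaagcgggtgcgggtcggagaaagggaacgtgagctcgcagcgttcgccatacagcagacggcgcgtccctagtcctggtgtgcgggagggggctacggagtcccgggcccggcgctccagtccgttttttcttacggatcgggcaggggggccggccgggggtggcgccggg
Sfrp5 (chr19:42202253-42202502, minus strand): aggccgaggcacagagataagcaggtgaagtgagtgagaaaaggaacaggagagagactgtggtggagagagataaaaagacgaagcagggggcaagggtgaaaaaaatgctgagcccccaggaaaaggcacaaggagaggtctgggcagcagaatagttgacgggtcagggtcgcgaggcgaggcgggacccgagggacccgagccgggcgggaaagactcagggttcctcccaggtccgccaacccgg

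The TATA word stood 32 bases before the end of the Dkk2 window and, on the other strand, 188 bases before the end of the Wif1 window. Of all 32851 RefSeq promoters, 12.4% held it in the 250 bases before the RefSeq start. In the 206 of those bases farthest from the start, the stretch that the Wif1 window covers, 9.38% held it. None of the 5 windows held the TCF/LEF word, taken as CTTTG followed by 2 letters that are each A or T, on either strand, which 14.8% of all promoters held within 250 bases. The 5 windows held 7 (Dkk2) to 28 (Wnt6) CpG pairs, and their GC content ran from 55.6% (Dkk2) to 79.6% (Wnt6). RefSeq promoters matched 23 of the 37 members, and 18 had a window of at least 200 bases. A match is a description of these letters, not of a bound site.

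The first comparison asks how the members' RNA differed between tumours and colitis, averaged over the 4 groups of each tissue. Tumours carried a different set of Wnt ligands and inhibitors from the inflamed colon: Wnt6, Wnt10a, Wif1, Dkk2 and Fzd10 were far higher, and Rspo1, Rspo2, Rspo3, Sfrp1, Sfrp4, Sfrp5 and Fzd5 were lower. Of 35 members tested, 14 were called higher and 17 lower, and 4 were not called. The background was wide, since 72.6% of all genes were called, 36.5% higher and 36.1% lower. The libraries of the tissues were fully apart for 8 members higher and 10 lower, against 22.9% of all genes in either direction. Called higher in the tissue contrast of each of the 4 groups were 7 members, Wnt6, Wnt10a, Wls, Fzd6, Fzd10, Dkk2 and Wif1, where 9.48% of all genes were. Lower in each were 10, Wnt2b, Fzd3, Fzd4, Fzd5, Fzd8, Lrp6, Rspo1, Rspo3, Sfrp1 and Sfrp4, where 11.2% of all genes were. These lists do not hold whole in each refit that was run. Of the 10 lower members, 5 remained when only the groups compared were fitted (without Wnt2b, Rspo1, Rspo3, Sfrp1 and Sfrp4), 8 with the replicate block, 7 without the first or the second tumour Il1f5 WT library or the first tumour Il1f9 KO library, and 8 to 9 without any 1 of the colitis Il1f5 WT or Il1f9 KO libraries. Of the 7 higher members, Wls or Fzd6 was lost in some refits and 6 remained there. The median over tested members was -0.15 on the log2 scale, beside -0.01 over all genes. Wnt2 and Wnt9b, at 10 and 9 counts at most in a library, were not tested. In single groups the calls of these 35 members were 12 higher and 10 lower in Il1f5 WT, 14 and 17 in those labelled Il1f5 KO, 9 and 16 in Il1f9 WT and 11 and 13 in Il1f9 KO, where 41.7%, 56.3%, 58.3% and 51.5% of all genes were called. Of all genes, 20.0%, 29.0%, 28.6% and 26.2% were higher in those 4 contrasts and 21.7%, 27.3%, 29.6% and 25.3% lower. Tissue, treatment and deposited table changed together, so these cannot be told apart.

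**Figure D1:**
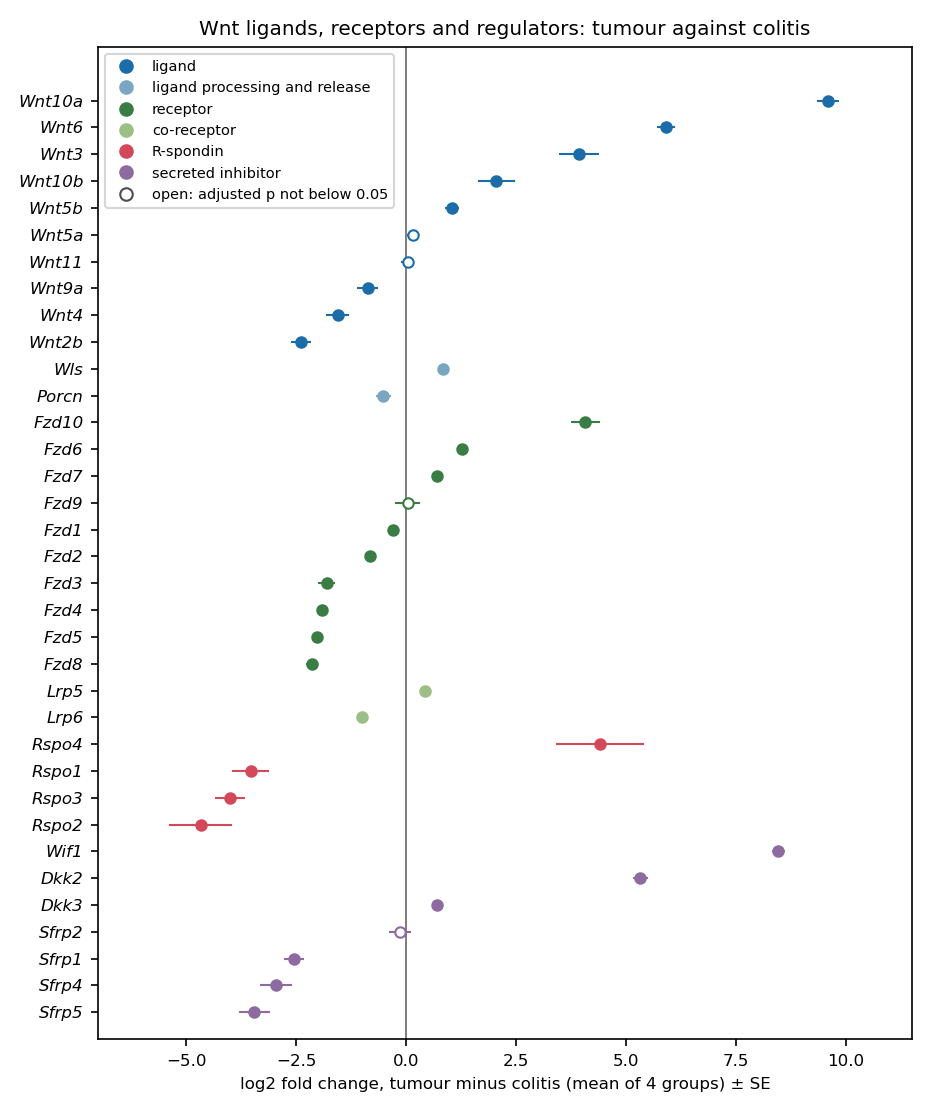
Log2 fold change from colitis to tumour, mean of 4 groups, with its standard error (x axis) for the 35 members tested (y axis), coloured by role; filled points had an adjusted p under 0.05. Wnt10a at 9.60 and Wif1 at 8.46 lie farthest to the right, and the fitted positions of Rspo2 and Rspo4 rest on 3 and 1 counts in the lower tissue.

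Among the ligands, 5 were called higher in tumours and 3 lower. Wnt6 had 0.525 CPM at the lowest, 1.41 at the median and 2.07 at the highest in the 10 colitis libraries, and 45.7, 70.9 and 145 in the 8 tumour libraries. Each tumour library was above each colitis library, with a log2 fold change of 5.91 ± 0.21 (SE, adjusted p = 2.55e-11). Wnt10a was near 0 in colitis, at 0, 0.051 and 0.166 CPM, and at 26.7, 39.4 and 63.5 in tumours (9.60 ± 0.25, adjusted p = 6.67e-14). Its colitis libraries held 11 counts in all, so the ratio of summed counts was 747-fold with a 95% exact interval of 417 to 1498 that covers counting error only. Wnt6 and Wnt10a lie next to each other on chromosome 1 and the same strand, 6193 bases apart with 0 coding genes between them (Wnt6 at 74771892 to 74785322, Wnt10a at 74791516 to 74804179, coordinates as in GRCm38). Both are ligands known from skin and other ectodermal epithelia.

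Wnt3, a ligand of Paneth cells in the small intestine, rose 3.94 ± 0.46 on the log2 scale from 23 counts in colitis to 314 in tumours (adjusted p = 1.03e-06). Its range was 0 to 0.302 CPM in colitis and 0.552 to 4.47 in tumours. Wnt9b, the neighbour of Wnt3 on chromosome 11 at 24328 bases on the opposite strand, had 21 and 32 counts. Wnt10b rose 2.05 ± 0.42 (29 and 117 counts) and Wnt5b 1.04 ± 0.16. Lower were Wnt2b at -2.38 ± 0.23, Wnt4 at -1.56 ± 0.25 and Wnt9a at -0.87 ± 0.23, with adjusted p of 1.15e-07, 5.26e-05 and 0.00324. Wnt5a, a ligand of the beta-catenin-independent branch, was not called (0.16 ± 0.13, adjusted p = 0.272) and neither was Wnt11 (0.04 ± 0.15, adjusted p = 0.836).

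On the FPKM scale, which allows levels of different genes to be compared, the ligand pool changed in size and make-up. The summed FPKM of the 12 ligands was 8.002 to 13.6 in colitis, median 9.90, and 34.5 to 109.7 in tumours, median 56.4. In colitis Wnt5a led with a median of 29.0% of this sum, followed by Wnt2b at 21.3%, Wnt4 at 19.6% and Wnt5b at 13.2%. In tumours Wnt6 took a median of 57.4% (53.2 to 64.6%) and Wnt10a 27.0% (25.2 to 28.0%), and Wnt5a 5.10%. Wnt5a itself had a median FPKM of 2.96 in colitis and 3.22 in tumours. The order within a tissue is a description and was not tested.

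**Figure D2:**
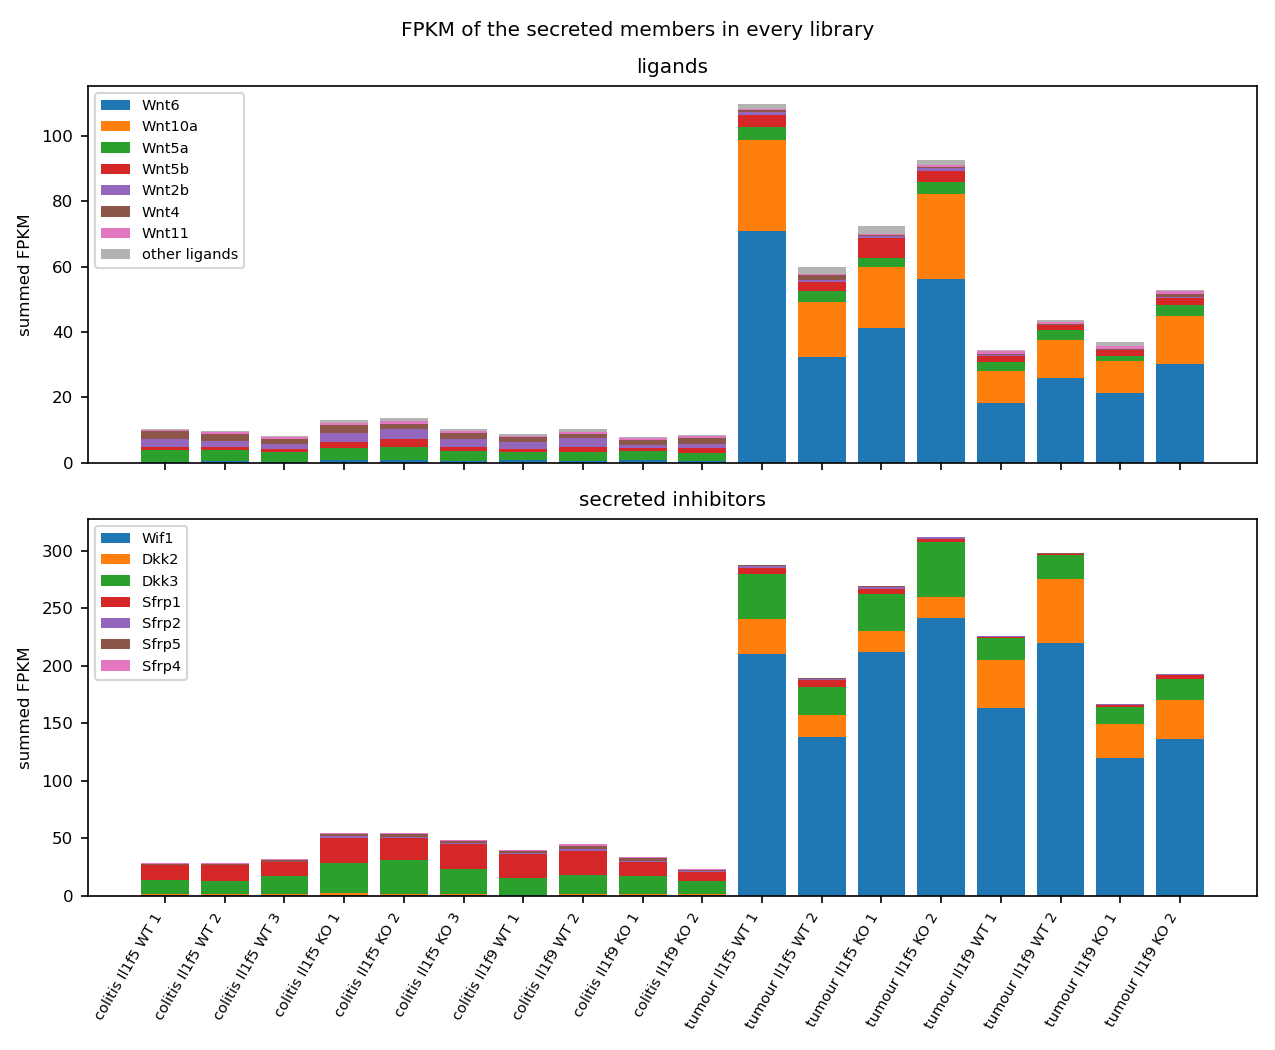
Summed FPKM (y axis) of the ligands (top) and the secreted inhibitors (bottom) in each of 18 libraries (x axis), stacked by gene. Wnt6 and Wnt10a fill most of each tumour bar in the top panel and Wif1 most of each tumour bar in the bottom panel, while Sfrp1 and Dkk3 fill most of each colitis bar there.

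Wls and Porcn, which act in the cells that send the signal, went in opposite directions in the mean of the 4 groups. Wls was at 65.5, 83.5 and 110.0 CPM (lowest, median, highest) in colitis and 115, 148 and 211 in tumours. No library of one tissue reached the range of the other, and the rise was 0.84 ± 0.06 on the log2 scale (adjusted p = 8.7e-09). Porcn was slightly lower in tumours in that mean (-0.51 ± 0.16, adjusted p = 0.00968), with ranges of 3.20 to 9.71 and 2.02 to 7.82 CPM that overlapped. Its contrasts in single groups differed in sign. Porcn was called lower in the groups labelled Il1f5 KO and in Il1f9 WT, but was at 0.63 in Il1f5 WT (adjusted p = 0.105). It was not called in Il1f5 WT or Il1f9 KO.

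Of the 10 Frizzled receptors, 3 were called higher in tumours, 6 lower and 1 was not called. Fzd5, a main receptor of the intestinal epithelium, was at 108, 142 and 153 CPM in colitis and 22.9, 35.7 and 44.5 in tumours, with no overlap (-2.02 ± 0.11, adjusted p = 2.55e-10). Of its exon bases 17.8% are shared with another annotated gene, and the libraries do not record strand, so reads there cannot be assigned with certainty. Fzd8 was at 14.9, 16.3 and 25.8 CPM in colitis and 2.76, 3.88 and 6.09 in tumours (-2.14 ± 0.14, adjusted p = 8.27e-10). Fzd4, also a receptor of endothelium, was at 17.2, 22.0 and 31.4 CPM in colitis and 2.46, 6.52 and 9.61 in tumours (-1.91 ± 0.12, adjusted p = 1.1e-09). For both receptors the lowest colitis library lay above the highest tumour library.

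Fzd10 rose most among the receptors, from 0.237 to 1.56 CPM in colitis to 4.40 to 23.7 in tumours (4.08 ± 0.33, adjusted p = 4.06e-08). Fzd6, which acts in planar polarity, rose 1.28 ± 0.13 and Fzd7, a receptor of intestinal stem cells, 0.70 ± 0.10. Fzd3 was lower by -1.80 ± 0.19 and Fzd2 by -0.82 ± 0.12. Fzd1 was lower by -0.29 ± 0.10 in the mean (adjusted p = 0.0133), but its contrasts differed in sign: -1.09 ± 0.19 in the groups labelled Il1f5 KO and 0.51 ± 0.20 in Il1f9 KO. Without the second colitis Il1f9 WT library the call of Fzd1 was lost (adjusted p = 0.0577). In FPKM, Fzd5 took a median of 35.6% of the receptor sum in colitis and 12.8% in tumours, while Fzd1 took 30.7% and 35.4% and Fzd10 0.325% and 8.31%. The receptor sum was 55.8 FPKM at the median in colitis and 35.4 in tumours.

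The co-receptors parted. Lrp6 was lower in tumours (62.8 to 101 CPM) than in colitis (139 to 191 CPM), by -0.996 ± 0.08 (adjusted p = 1.38e-08). Lrp5 was at 59.9, 89.3 and 106 CPM in colitis and 76.7, 106 and 192 in tumours, with overlap, and was called higher by 0.44 ± 0.09 (adjusted p = 0.000333). In single groups Lrp5 was called higher in those labelled Il1f5 KO and in Il1f9 KO, and was not called in Il1f5 WT or Il1f9 WT. In FPKM the median share of Lrp5 in the pair was 42.1% in colitis and 63.7% in tumours.

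R-spondins were the role with the steepest falls. Rspo3, the main R-spondin of the colon here with a median of 81.3% of their FPKM in colitis, ranged from 6.85 to 20.2 CPM in colitis and from 0.115 to 2.16 in tumours (-4.01 ± 0.34, adjusted p = 1.4e-07). Of its exon bases 13.1% are shared with another gene. Rspo1 had 361 counts in colitis and 21 in tumours, 13.1-fold lower with a 95% exact interval of 8.43 to 21.4 (adjusted p = 1.29e-06). Rspo2 had 95 and 3 counts, a ratio of 24.1 with an interval of 8.004 to 119 (adjusted p = 4.07e-05). These intervals, and that of Rspo4 below, cover counting error only and not the spread between libraries. Rspo4 went the other way, with 1 count in colitis and 90 in tumours, a ratio of 118 with an interval of 20.7 to 4720 (adjusted p = 0.00207). Its tumour reads lay mostly in the libraries labelled Il1f5 KO, at 2.47 and 1.31 CPM, and without the second tumour Il1f9 WT library the call was lost (adjusted p = 0.99997). Summed R-spondin FPKM was 5.27 at the median in colitis and 0.560 in tumours.

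The secreted inhibitors were 3 higher, 3 lower and 1 not called. Wif1, which binds Wnt proteins outside the cell, was at 0.755, 1.34 and 2.11 CPM in colitis and 310.0, 462 and 618 in tumours (8.46 ± 0.15, adjusted p = 2.33e-15). Its level in the lowest tumour library was far above the highest colitis library, and in FPKM it took 73.0% of the inhibitor sum in tumours at the median and 1.42% in colitis. Dkk2 was at 1.39, 2.54 and 4.38 CPM in colitis and 62.1, 115 and 238 in tumours (5.32 ± 0.17, adjusted p = 5.37e-12). Dkk3 rose by 0.71 ± 0.12 with overlap between the tissues. The summed inhibitor FPKM was 36.5 at the median in colitis and 247 in tumours.

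Sfrp1, a decoy with a Frizzled-like domain, was at 33.1, 69.5 and 93.7 CPM in colitis and 1.72, 14.4 and 24.2 in tumours (-2.56 ± 0.23, adjusted p = 5.24e-07). No tumour library reached the colitis range. Sfrp4 (-2.95 ± 0.36) and Sfrp5 (-3.45 ± 0.35) were lower as well, and their libraries were fully apart. Sfrp2 was not called (-0.15 ± 0.25, adjusted p = 0.612), and 16.1% of its exon bases are shared with another gene.

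**Figure D3:**
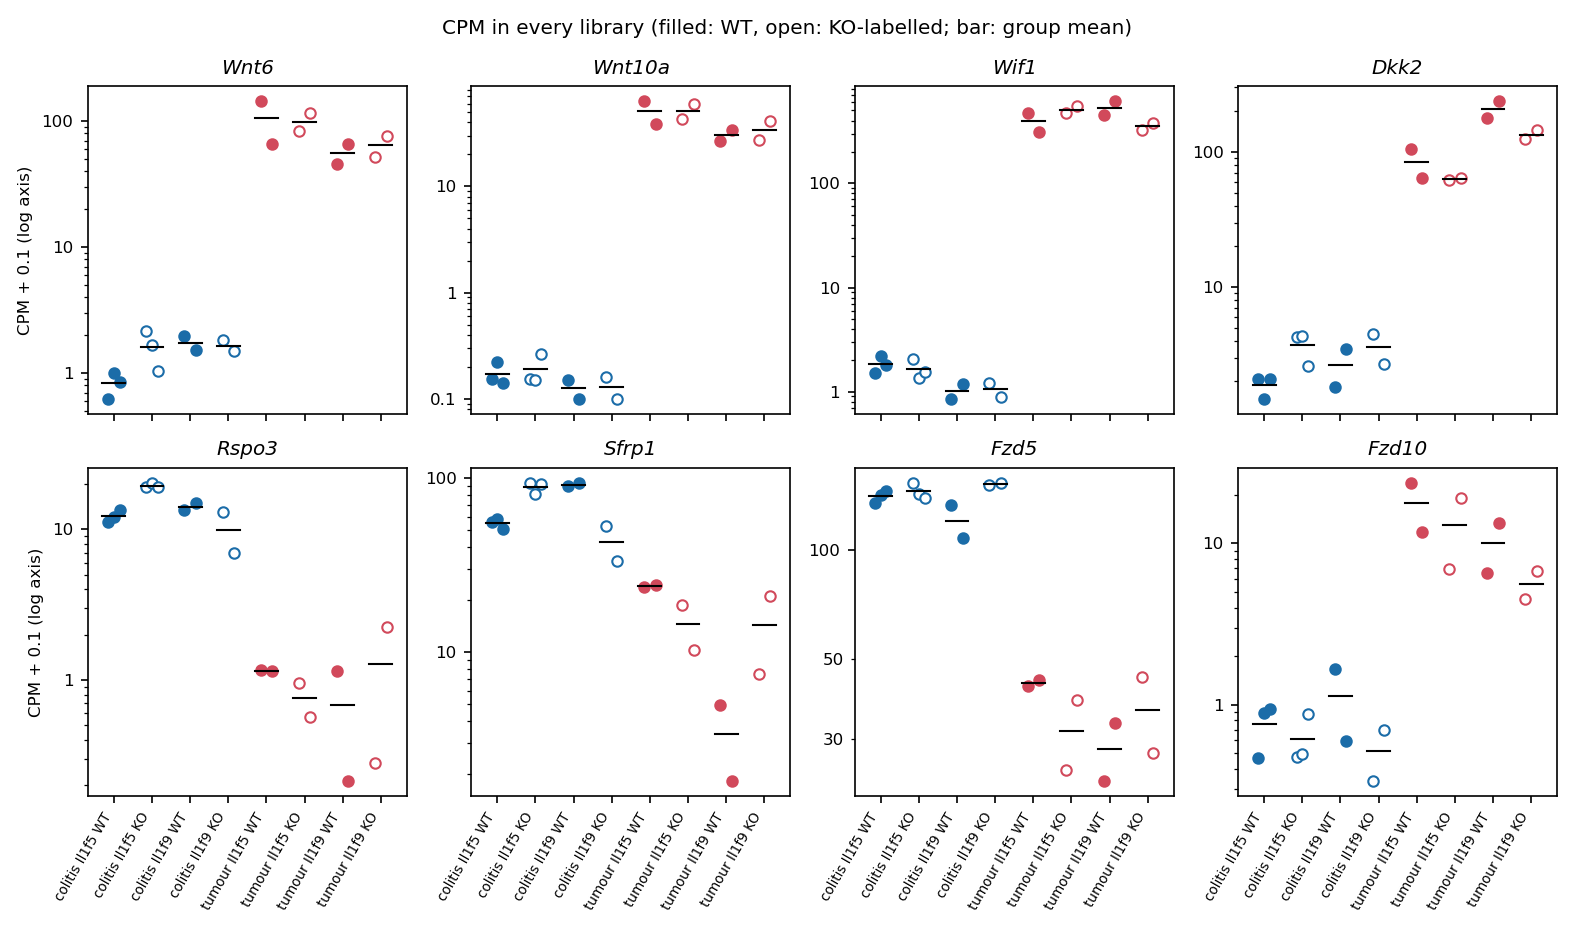
CPM plus 0.1 on a log axis (y) of 8 members in each library, by group (x axis), filled for WT and open for KO-labelled, with bars at group means. The tumour libraries of Wnt6, Wnt10a, Wif1, Dkk2 and Fzd10 lie above each colitis library, and those of Rspo3, Sfrp1 and Fzd5 below.

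Other genes of the pathway, from lists chosen by function, were read from the same fit. Of 18 Wnt target genes tested, 15 were called higher in tumours and 3 lower, with a median of 1.93 on the log2 scale. Axin2, a feedback scaffold of beta-catenin degradation, had a median of 24.1 CPM in colitis and 267 in tumours (3.71 ± 0.15, adjusted p = 3.35e-11), and Nkd1, an inhibitor of Dishevelled, 25.5 and 340 (3.84 ± 0.09, adjusted p = 1.65e-14). Tnfrsf19 rose 4.32 ± 0.13 and Tcf7 3.06 ± 0.10. Of 16 other receptors and turnover genes 9 were higher and 4 lower. Lgr5, the R-spondin receptor of stem cells, rose from a median of 4.83 to 34.8 CPM (2.97 ± 0.36), and Znrf3, a ligase that removes Frizzleds, from 9.62 to 63.5. Of 12 other ligands and secreted regulators tested 8 were higher and 4 lower. Notum, which strips the lipid from Wnt proteins, was at a median of 0.105 CPM in colitis and 169.9 in tumours, and Apcdd1, a membrane-bound inhibitor, at 4.68 and 197. Wnt7b had a median of 0 CPM in colitis and 4.89 in tumours. Among 22 intracellular transducers 9 were higher and 7 lower, with a median of 0.07.

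Cell type markers changed between the tissues too, and in bulk RNA fewer cells of a type and less RNA per cell cannot be told apart. All 10 smooth muscle markers were called lower in tumours (median log2 fold change -3.54), with summed CPM of 1696 to 5411 in colitis and 99.0 to 899.7 in tumours. Lower were also 10 of 12 fibroblast markers (median -1.34), 9 of 10 neuron and glia markers (-3.55), 8 of 10 endothelial markers (-0.99) and 6 of 6 adipocyte markers (-6.42), with Adipoq at a median of 0 CPM. Of 9 squamous epithelium markers tested 8 were higher (median 6.396), and their summed CPM went from 6.01 to 12.1 in colitis to 97.1 to 832 in tumours. Krt14 was at 39.6 to 319 CPM in tumours, while Krt5 and Trp63 were at 0 in at least 1 tumour library. Of 14 epithelial markers 5 were higher and 6 lower (median -0.05), and of 10 macrophage markers 7 were higher. Of 10 markers of subepithelial mesenchyme, a source of Wnt signals, 2 were higher and 6 lower. The part of these lists in the members' differences was not tested.

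**Figure D4:**
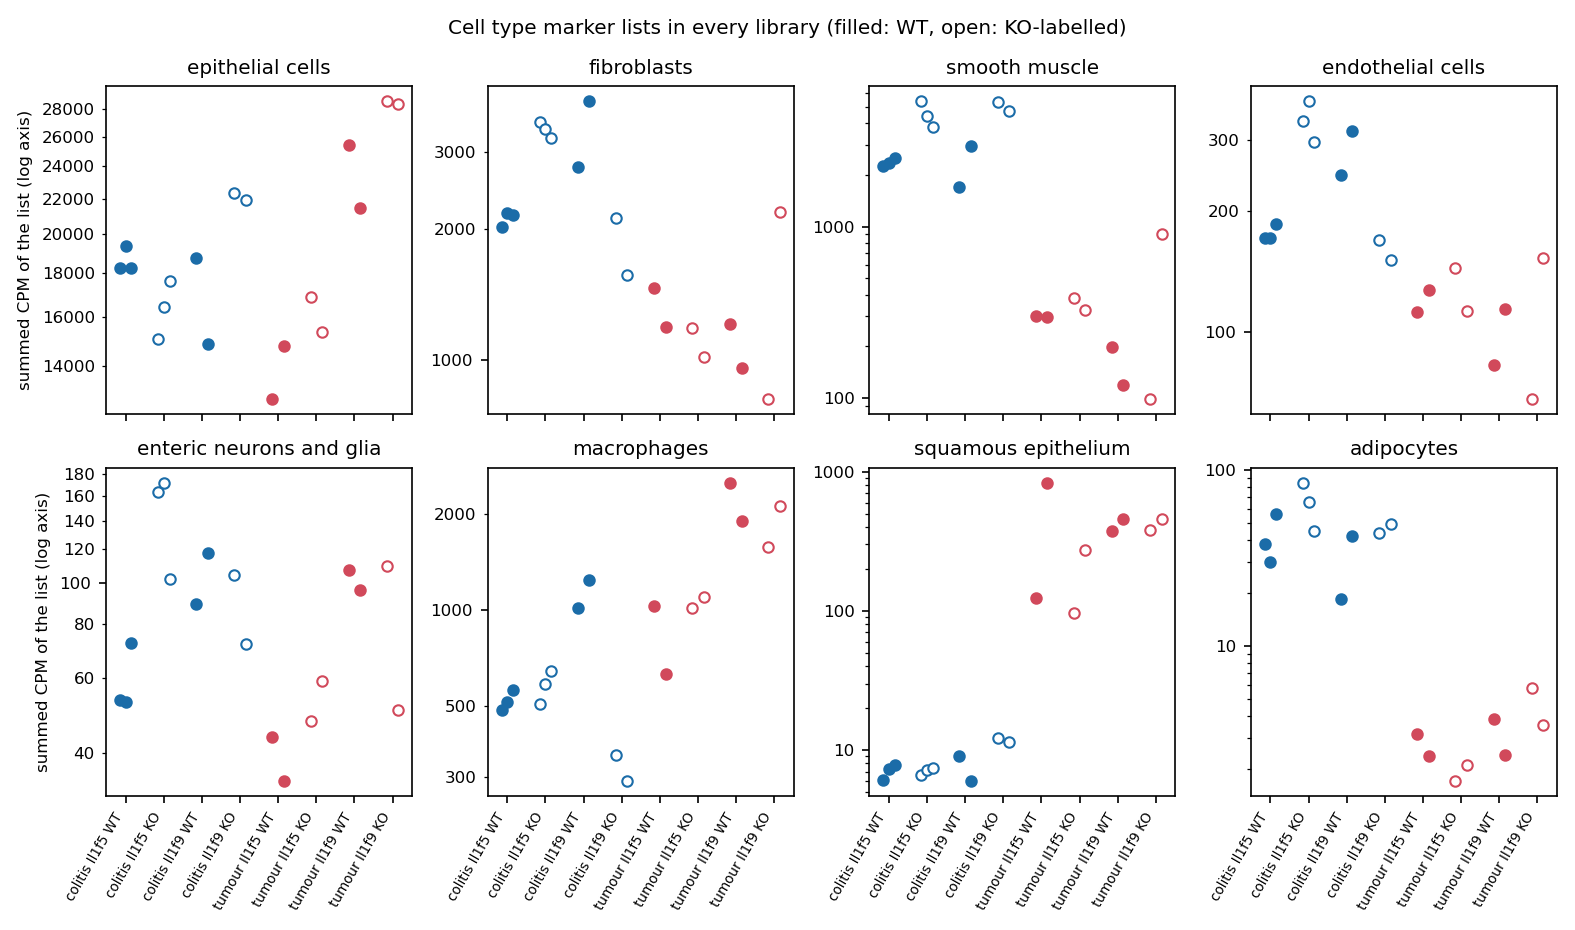
Summed CPM of 8 cell type marker lists on a log axis (y) in each library, by group (x axis), filled for WT and open for KO-labelled. Smooth muscle is at 1696 to 5411 in colitis and 99.0 to 899.7 in tumours, and squamous epithelium at 6.01 to 12.1 and 97.1 to 832.

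The next question was whether the members differed between the colitis groups labelled Il1f5 KO and WT. R-spondins, several ligands and several inhibitors were higher in the libraries labelled Il1f5 KO. Of 31 members tested 15 were called higher and 1 lower, while 24.7% of all genes were called, 13.7% higher and 11.0% lower. The median over tested members was 0.52, beside -0.01 over all genes. By role, called higher were 4 of 7 ligands (Wnt5b, Wnt6, Wnt9a and Wnt11), Porcn, 3 of 10 receptors (Fzd4, Fzd6 and Fzd8), 3 of 3 R-spondins and 4 of 7 inhibitors (Sfrp1, Sfrp5, Dkk2 and Dkk3). Lrp5 was lower.

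Dkk3 was at 39.9, 37.9 and 52.9 CPM in the WT libraries and 88.5, 95.1 and 72.5 in those labelled KO. The groups did not overlap (0.97 ± 0.16, adjusted p = 0.00338). Sfrp1 was at 55.7, 57.8 and 50.8 in WT and 93.2, 81.3 and 92.3 in KO-labelled libraries (0.70 ± 0.14, adjusted p = 0.00695). Rspo1 was at 0.945, 1.08 and 1.34 in WT and 3.50, 2.68 and 2.43 in KO-labelled libraries (1.34 ± 0.27, adjusted p = 0.00682). For these secreted regulators each KO-labelled library was above each WT library. Rspo2 was low throughout, at 0.157, 0 and 0.251 CPM in WT and 1.06, 0.830 and 0.553 in KO-labelled libraries (2.41 ± 0.59, adjusted p = 0.0145). Rspo3 rose 0.68 ± 0.19 (adjusted p = 0.024).

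Porcn, the acyltransferase of Wnt proteins, was at 3.20, 4.16 and 4.10 CPM in WT and 9.71, 8.59 and 6.64 in KO-labelled libraries (1.12 ± 0.23, adjusted p = 0.00769). Fzd8 was at 14.9, 15.3 and 15.5 in WT and 24.1, 25.8 and 19.8 in KO-labelled libraries (0.61 ± 0.13, adjusted p = 0.00801). The WT libraries of Fzd8 lay within 1 CPM of each other and below the KO-labelled ones. Wnt11, a ligand of the beta-catenin-independent branch, was at 1.05, 1.63 and 1.76 against 2.76, 4.05 and 3.26 (1.18 ± 0.26, adjusted p = 0.00925). Wnt9a was at 0.735, 0.662 and 0.503 against 1.59, 1.51 and 1.38 (1.25 ± 0.29, adjusted p = 0.0114). Lrp5 was at 99.1, 106 and 96.2 in WT and 84.4, 78.6 and 80.8 in KO-labelled libraries (-0.30 ± 0.09, adjusted p = 0.0278). Wnt5a, Wls, Fzd5, Lrp6 and Wif1 were among the 15 members not called.

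Dkk3, Sfrp1, Rspo1, Porcn, Fzd8, Wnt11 and Wnt9a kept their calls in each refit that was run. Other calls were lost when 1 library was left out. Without WT library 1 the adjusted p was 0.0518 to 0.154 for Wnt6, Fzd4, Fzd6, Lrp5, Rspo2, Rspo3, Sfrp5 and Dkk2, and without WT library 2 it was 0.0588 to 0.149 for Wnt5b, Wnt6, Fzd4, Fzd6, Lrp5, Rspo3, Sfrp5 and Dkk2. Without WT library 3 it was 0.0795 to 0.119 for Wnt6, Fzd6 and Dkk2. Without KO-labelled library 1 it was 0.0528 to 0.164 for Wnt6, Fzd4, Fzd6, Rspo2, Rspo3 and Dkk2, without library 2 it was 0.0527 to 0.133 for Wnt5b, Wnt6, Fzd4, Lrp5, Rspo3, Sfrp5 and Dkk2, and without library 3 it was 0.0605 for Lrp5.

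Among pathway genes in the same contrast, 5 of 18 Wnt targets were higher and 3 lower (median -0.09). Nkd1 rose 1.07 ± 0.12 and Ccnd1 fell by 1.14 on the log2 scale, whereas Axin2 (-0.50 ± 0.27, adjusted p = 0.198) and Lgr5 (-1.28 ± 0.63, adjusted p = 0.17) were not called. Of 15 other receptors and turnover genes tested 4 were higher, 2 lower and 9 not called (median -0.0002). Among the higher were Ror1 and Ror2, receptors of Wnt5a, which rose 1.04 ± 0.22 and 0.86 ± 0.18. Markers of the colon wall rose with the members: 10 of 10 endothelial, 9 of 10 neuron and glia, 8 of 10 smooth muscle, 10 of 12 fibroblast and 4 of 10 subepithelial mesenchyme markers were higher and 0 were lower. Of 14 epithelial markers 3 were lower and 0 higher. Summed fibroblast CPM was 2014 to 2176 in WT and 3232 to 3515 in KO-labelled libraries, and summed endothelial CPM 171 to 186 and 297 to 375. Their part in the members' differences was not tested.

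**Figure D5:**
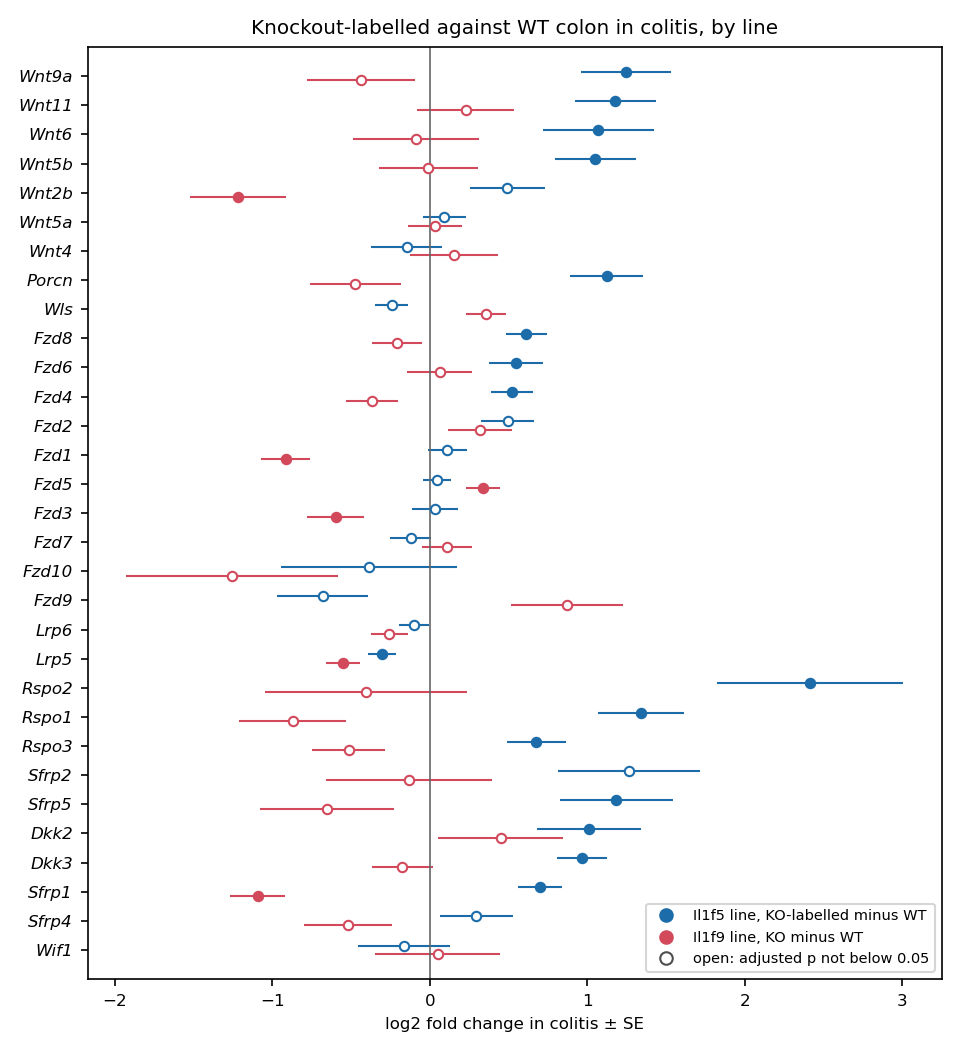
Log2 fold change in colitis with its standard error (x axis) of 31 members (y axis), for the Il1f5 line (blue) and the Il1f9 line (red), filled where the adjusted p was under 0.05. Sfrp1 is at 0.70 in the Il1f5 line and -1.09 in the Il1f9 line, and Lrp5 is below 0 in both.

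In the Il1f9 line, colitis KO against WT called 1 of 31 members higher and 5 lower, while 19.6% of all genes were called, 9.59% higher and 9.98% lower. The share of members was thus near the background. Sfrp1 was at 89.6 and 93.7 CPM in WT and 53.0 and 33.1 in KO (-1.09 ± 0.17, adjusted p = 0.00219). Fzd1 was at 65.1 and 83.6 in WT and 37.5 and 41.4 in KO (-0.92 ± 0.16, adjusted p = 0.00279). Lrp5 was at 94.1 and 101 in WT and 59.9 and 73.1 in KO (-0.55 ± 0.11, adjusted p = 0.0055). In each of these genes both KO libraries were below both WT libraries.

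Wnt2b, a ligand of mesenchymal cells, was at 8.46 and 10.9 CPM in WT and 2.84 and 5.41 in KO (-1.22 ± 0.30, adjusted p = 0.0167). Fzd3 was at 15.3 and 14.0 in WT and 9.52 and 9.83 in KO (-0.60 ± 0.18, adjusted p = 0.0371). Fzd5 was the member that rose, from 133 and 108 to 151 and 153 (0.34 ± 0.11, adjusted p = 0.0472). Calls depended on single libraries. Without KO library 1 those of Wnt2b, Fzd3, Fzd5 and Lrp5 were lost (adjusted p 0.118, 0.157, 0.15 and 0.0567), and without KO library 2 those of Fzd3 and Fzd5 (0.125 and 0.185). Without WT library 1 that of Fzd3 was lost (0.12), and without WT library 2 those of Wnt2b, Fzd3 and Fzd5 (0.114, 0.0953 and 0.34). Sfrp1 and Fzd1 kept theirs in each refit run.

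The Wnt targets gave 2 higher and 3 lower calls of 18, with Sox9 higher (0.67 ± 0.15) and Ccnd1 lower (-0.70 ± 0.19). Axin2 (0.64 ± 0.33, adjusted p = 0.204) and Nkd1 (0.32 ± 0.14, adjusted p = 0.144) were not called. Igfbp4, a secreted protein that also binds insulin-like growth factors, fell by 1.37. Beside these, 9 of 10 macrophage markers were lower in KO (median -1.82), with summed CPM of 1016 and 1239 in WT and 291 and 351 in KO. Lower were also 6 of 10 endothelial, 5 of 12 fibroblast, 1 of 10 subepithelial mesenchyme and 1 of 10 neuron and glia markers. Higher were 9 of 10 smooth muscle markers and 1 fibroblast marker. Of 14 epithelial markers 5 were higher in KO and 0 lower (median 0.38), with summed CPM of 14859.6 and 18757 in WT and 21909.8 and 22329 in KO. Their part in the members' differences was not tested.

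Whether the KO effects in colitis differed between the lines was tested directly, and 14 of 31 members passed, 2 higher and 12 lower in the Il1f9 line, where 24.8% of all genes did, 12.0% higher and 12.8% lower. The smallest p-values were those of Sfrp1 (-1.79 ± 0.22, adjusted p = 0.000832), Fzd1 (-1.03 ± 0.20, adjusted p = 0.00499) and Rspo1 (-2.21 ± 0.43, adjusted p = 0.00522). In the same test 10 of 10 endothelial, 10 of 10 macrophage, 9 of 12 fibroblast, 5 of 10 subepithelial mesenchyme and 5 of 10 neuron and glia markers were lower in the Il1f9 line and 0 higher. Of 10 smooth muscle markers 1 was lower, 0 were higher and 9 were not called (median 0.11). Of 6 adipocyte markers 0 were higher and 0 lower. Of 14 epithelial markers 8 were higher and 0 lower. Their part in the members' differences was not tested. Between the WT groups of the lines 1 of 31 members was called higher and 1 lower. These 6.45% of members were near the 4.93% of all genes called, 3.25% higher and 1.68% lower. Sfrp1 was higher in the WT libraries of the Il1f9 line by 0.75 ± 0.15 (adjusted p = 0.0245). Wls was lower by -0.53 ± 0.12 (adjusted p = 0.0287). Between these WT groups 8 of 10 macrophage, 5 of 12 fibroblast, 5 of 10 endothelial and 1 of 10 neuron and glia markers were higher in the Il1f9 line and 0 lower. Summed macrophage CPM was 486 to 562 in the Il1f5 line and 1016 to 1239 in the Il1f9 line, and the part of these markers was not tested. These comparisons share the WT libraries, so their values are not independent. For Sfrp1 the Il1f9 WT libraries (89.6 and 93.7 CPM) stood at the level of the libraries labelled Il1f5 KO (81.3 to 93.2 CPM). Without the second colitis Il1f9 WT library the WT difference of Sfrp1 was not called (adjusted p = 0.173), nor was it without Il1f5 WT library 1, 2 or 3 (0.0924, 0.0761 and 0.0568). Wls lost its WT call without Il1f5 WT library 1 or 2 (0.116 and 0.105) or Il1f9 WT library 1 or 2 (0.0784 and 0.143).

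In tumours the same questions gave no called member in the edgeR fit of the 4 tumour groups together. Of 33 members tested, 0 were called in libraries labelled Il1f5 KO against WT and 0 in Il1f9 KO against WT, where 0.028% and 0.0168% of all genes were called by edgeR. Of all genes, 0.0112% were higher and 0.0168% lower in the Il1f5 line, and 0.0056% higher and 0.0112% lower in the Il1f9 line. At an unadjusted p under 0.05 there were 3 members in each line, Rspo4, Lrp5 and Fzd1 in the Il1f5 line and Sfrp1, Dkk2 and Wif1 in the Il1f9 line, where 23.0% and 8.70% of all genes were under it. By the DESeq2 Wald test 1 member was called higher in each line, where 3.73% and 0.442% of all genes were called higher. With edgeR fitted to the compared groups alone, Lrp5 (0.74, adjusted p = 0.0445) and Rspo4 (3.18, adjusted p = 0.0357) were called higher in the Il1f5 line. That fit called 2.61% of all genes higher and 3.34% lower in the Il1f5 line, and 0 genes in the Il1f9 line. The absence of calls in the Il1f5 line thus depended on the fit. Lrp5 was at 115 and 90.0 CPM in WT and 192 and 163 in libraries labelled Il1f5 KO (0.78 ± 0.25, adjusted p = 0.12). Sfrp1 was at 4.85 and 1.72 in Il1f9 WT and 7.41 and 20.98 in Il1f9 KO (2.08 ± 0.64, adjusted p = 0.462). The second Il1f9 KO tumour, which had the higher Sfrp1 value, also had the highest summed smooth muscle CPM of the tumours (899.7) and the highest fibroblast sum (2183), and the part of these was not tested. Wnt6 (-0.09 ± 0.39 and 0.18 ± 0.40), Wnt10a (0.00 ± 0.29 and 0.16 ± 0.29) and Axin2 (0.27 ± 0.18 and -0.14 ± 0.18) were not called in either line. With n = 2 a group, differences of the size of these errors were not detectable.

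The KO effects of the tissues were also set against each other. Of 35 members tested, the effect of the Il1f5 KO label was higher in tumours for 1, Lrp5, and lower for 3, Wnt9a, Porcn and Dkk2, where 18.1% of all genes were called, 10.8% higher and 7.23% lower. The Il1f9 KO effect was higher in tumours for 1 member, Sfrp1, and lower for 0, where 2.47% of all genes were called, 1.65% higher and 0.82% lower. Lrp5 (1.10 ± 0.24, adjusted p = 0.0083) was lower in KO-labelled colitis libraries and at 163 and 192 CPM in KO-labelled tumours. Each of these 5 calls was lost when 1 library was left out. Beside the Il1f5 difference, 5 of 14 epithelial markers were higher and 3 of 12 fibroblast, 3 of 10 subepithelial mesenchyme and 2 of 10 endothelial markers lower. Beside the Il1f9 difference, 7 of 10 macrophage, 1 of 12 fibroblast and 1 of 10 endothelial markers were higher and 0 lower. The median log2 values of these lists were 1.96, 1.16 and 1.14. The part of the markers in either difference was not tested.

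By edgeR, 0 of 33 members passed the test of a difference between the lines in the tumour KO effect, with 0.0784% of all genes called, 0.0448% higher and 0.0336% lower. At an unadjusted p under 0.05 there were 3, Wif1, Sfrp1 and Wnt4, where 17.2% of all genes were, and the DESeq2 Wald test called 1 higher, where it called 1.60% of all genes higher. Between the WT tumours of the lines 4 members were higher and 3 lower in the Il1f9 line, while 28.5% of all genes were called, 16.8% higher and 11.7% lower. Higher were Dkk2 (1.31 ± 0.23, adjusted p = 0.00491), Fzd7 (0.92 ± 0.25), Wnt11 (1.29 ± 0.36) and Wls (0.55 ± 0.16). Lower were Sfrp1 (-2.85 ± 0.65, adjusted p = 0.0189), Wnt2b (-2.34 ± 0.64) and Porcn (-1.38 ± 0.40). Dkk2 was at 105 and 64.2 CPM in the WT tumours of the Il1f5 line and 177 and 238 in those of the Il1f9 line. Dkk2 kept its call with each library left out. Without Il1f5 WT tumour 1 the calls of Wnt2b, Wnt11, Wls, Fzd7 and Sfrp1 were lost (adjusted p 0.0777 to 0.179), without Il1f5 WT tumour 2 those of Wnt2b, Wnt11, Porcn, Wls, Fzd7 and Sfrp1 (0.057 to 0.26), without Il1f9 WT tumour 1 those of Wnt2b, Wnt11, Porcn, Wls and Fzd7 (0.0646 to 0.167), and without Il1f9 WT tumour 2 those of Wnt2b, Wnt11, Porcn, Wls, Fzd7 and Sfrp1 (0.0669 to 0.148). The tumours of each line were deposited in a table of their own, so line and table cannot be told apart. Of 14 epithelial markers 7 were higher in the Il1f9 line and 1 lower, with summed CPM of 12828 to 14802 in the Il1f5 line and 21459 to 25453 in the Il1f9 line. Of 9 macrophage markers tested 3 were higher and 0 lower, with sums of 631 to 1031 and 1900.4 to 2508. Lower were 2 of 10 smooth muscle, 1 of 12 fibroblast and 1 of 10 endothelial markers, and 0 in these lists were higher. Of 10 subepithelial mesenchyme markers 1 was higher and 2 lower, and of 5 neuron and glia markers tested 1 was higher and 2 lower. The part of these markers was not tested. Of 18 Wnt targets tested 2 were higher in the Il1f9 line, 4 lower and 12 not called. Of 11 other ligands and secreted regulators 1 was higher and 2 lower, as were 1 and 2 of 16 other receptors and turnover genes. Among these genes Nkd1 (-0.82 ± 0.19) and Notum (-0.78 ± 0.24) were lower in the Il1f9 line, and Lgr5 was not called (-1.75 ± 0.57, adjusted p = 0.0648).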

How the data were processed

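Poly(A) RNA was sequenced by the authors as paired reads of non-directional libraries, so strand is not known. Per the submitters' processing notes, the tools were Trim Galore 0.6.4, HISAT2 2.0.5 and featureCounts 2.0.0. As for the build, it was not given in the sources used here. GENCODE M21, which is on GRCm38, holds 54409 of the 54532 genes and places 53499 of them at the same coordinates, 36 of the 37 members included. The deposited tables, 3 in number, hold whole-number counts made by the authors and the authors' FPKM, and were joined by gene identifier. Counts were tested here with edgeR 4.0.16 in R 4.3.3 (limma 3.58.1): filterByExpr on group, TMM scaling, a group-means model and the robust quasi-likelihood F test, with p adjusted over all genes tested and called under 0.05. KO and WT-line comparisons were fitted within a tissue, tissue comparisons and their interactions over all 18 libraries. The standard error is the log2 fold change over the square root of F. CPM uses 1 TMM scale over the 18 libraries.

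Members and gene lists were chosen with earlier results of these data known. All 37 members could be named. Values in every library were given for called members, at most 8 by smallest p in a comparison, and for those called in more than 1 KO comparison. Of each pathway list, up to 4 called genes with the smallest p, and Axin2, Lgr5, Notum and Nkd1, could be named. The alternatives tried were scaling by size factors (DESeq2 1.42.0), the Wald test of that tool, leaving low counts unfiltered, a block on replicate number, fitting just the compared groups, a minimum log2 fold change of 1 in size, and dropping each library in turn. Where 1 library was left in a group, its spread was taken from the other groups. The method was tested on simulated data. No 2 libraries of a group were copies (chi-square per gene of 6.19 to 95.5 over genes with at least 50 counts). The authors' own comparison columns were not used. Promoters were read from RefSeq. Python 3.11.15, pandas 2.3.3, numpy 2.4.6, scipy 1.17.1 and matplotlib 3.10.9 gathered and drew the values.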

Additional observations from a re-analysis of the deposited data

Results flagged for a closer look

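Effects that differed between the lines or between the tissues, by the test of the difference itself in edgeR at an adjusted p under 0.05, are given here on the log2 scale with their standard errors. In colitis, 12 of 31 members tested had a lower KO effect in the Il1f9 line than in the line labelled Il1f5 KO. Of all genes 12.8% were lower in this test and 12.0% higher. These were Sfrp1 (-1.79 ± 0.22), Fzd1 (-1.03 ± 0.20), Rspo1 (-2.21 ± 0.43), Wnt2b (-1.71 ± 0.38), Dkk3 (-1.14 ± 0.25), Porcn (-1.60 ± 0.37), Fzd4 (-0.89 ± 0.21), Fzd8 (-0.82 ± 0.20), Rspo3 (-1.19 ± 0.30), Wnt9a (-1.68 ± 0.45), Sfrp5 (-1.84 ± 0.56) and Rspo2 (-2.82 ± 0.88). A higher KO effect in the Il1f9 line was found for 2 of 31, Wls (0.60 ± 0.16) and Fzd9 (1.55 ± 0.46), a share below that of all genes. Neither was called within a line. Sfrp1, Fzd1, Rspo1, Wnt2b and Dkk3 kept this call with each library left out. Without Il1f9 KO library 2 the adjusted p was 0.0535 to 0.13 for Wnt9a, Porcn, Wls, Fzd4, Fzd8, Fzd9, Rspo2 and Sfrp5, and without Il1f9 WT library 2 it was 0.0553 to 0.119 for Wnt9a, Porcn, Wls, Fzd4, Fzd9, Rspo2, Rspo3 and Sfrp5. Without Il1f9 KO library 1 it was 0.0564 to 0.09 for Wnt9a, Fzd9 and Rspo2, and without Il1f9 WT library 1 it was 0.0555 and 0.061 for Wls and Rspo2. In the Il1f5 line, calls were lost without KO-labelled library 1 (Rspo2, 0.0776) or 2 (Fzd9, Rspo2 and Sfrp5, 0.0544 to 0.071) and without WT library 1 (Wls, Rspo2 and Sfrp5, 0.0511 to 0.0746), 2 (Wls, Fzd9 and Sfrp5, 0.0534 to 0.0785) or 3 (Fzd9, 0.071). Sfrp1 was called within both lines in opposite directions, and Fzd1 and Wnt2b within the Il1f9 line alone.

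Between the tissues, the effect of the Il1f5 KO label was lower in tumours for Wnt9a (-2.74 ± 0.62, adjusted p = 0.00958), Porcn (-1.72 ± 0.43, adjusted p = 0.0141) and Dkk2 (-1.43 ± 0.43, adjusted p = 0.0365) and higher for Lrp5 (1.10 ± 0.24, adjusted p = 0.0083), where 18.1% of all genes were called. The Il1f9 KO effect was higher in tumours for Sfrp1 (3.21 ± 0.67, adjusted p = 0.0338), where 2.47% of all genes were called. Several of these calls ended with 1 library left out. For Sfrp1 the adjusted p was 0.102 without the second tumour Il1f9 WT library, 0.0624 and 0.127 without the first and second colitis Il1f9 KO library, and 0.0544 and 0.11 without the first and second colitis Il1f9 WT library. For Wnt9a, Porcn and Lrp5 it was 0.0799, 0.0688 and 0.0706 without the first tumour library labelled Il1f5 KO, and for Wnt9a and Porcn 0.0565 and 0.0912 without the second tumour Il1f5 WT library. Dkk2 lost its call without any of 8 of the 10 libraries compared, with an adjusted p of 0.057 to 0.141. None of these differences was weighed further.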

How the results depend on the processing

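Of 81 called results of single members outside the single-group tissue contrasts, 0 turned direction under the alternatives run, and neither did any of the 22, 31, 25 and 24 members called in the tissue contrasts of Il1f5 WT, Il1f5 KO label, Il1f9 WT and Il1f9 KO. Of the 81, 81 kept the call with DESeq2 size factors, 79 with the DESeq2 Wald test, 79 with no filter on low counts and 68 with the replicate block. The fit of the compared groups alone kept 32 of 36, and 779 of 904 fits with a library left out kept theirs. That fit was not run for the mean tissue comparison or for the differences in KO effect within a tissue, where it is the same fit. Replicate numbers do not pair the libraries: correlations of same-numbered deviations ran from -0.127 to 0.0795, so the block is a number only.

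Shares of all genes come first. Lower were 18.7% in the Il1f9 KO tissue contrast with the compared groups alone and 8.14% in the colitis Il1f5 comparison with the block. Higher in the colitis Il1f9 comparison were 6.96% with the block and 6.98% with the compared groups alone. The difference in colitis had 6.43%, 8.93% and 13.5% higher with no filter, the block and the Wald test. The colitis WT lines had 3.01%, 6.04% and 5.05% higher with no filter, the Wald test and the compared groups alone. Counts of called members with a library left out follow. Tumour against colitis gave 13 to 15 higher and 16 to 17 lower in the mean, 10 to 12 and 7 to 9 in Il1f5 WT, 12 to 13 and 15 to 17 in groups labelled Il1f5 KO, 8 and 14 to 17 in Il1f9 WT, and 8 to 10 and 11 to 14 in Il1f9 KO, where the compared groups alone gave 7 lower. In colitis the Il1f5 comparison gave 8 to 17 members higher and 0 to 2 lower, with 9 and 0 at a log2 fold change of 1 or more in size and 0 lower with the block. The colitis Il1f9 comparison gave 0 to 1 higher and 3 to 4 lower, with 0 and 2 at that fold and 0 higher with the block or the compared groups alone. The difference of KO effects in colitis gave 0 to 2 higher and 6 to 14 lower, with 1 higher at that fold, with no filter, with the block and by the Wald test. The colitis WT lines gave 0 to 1 members in each direction, 0 at that fold and with the block, and 2 higher with no filter, by the Wald test or with the compared groups alone.

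In tumours the KO comparisons gave 0 members with a library left out. The Il1f5 comparison gave 2 higher with no filter, 1 by the Wald test and 2 with the compared groups alone. Of all genes 3.93%, 3.73% and 2.61% were higher there. The Il1f9 comparison gave 1 higher and 2 lower with no filter, beside 1.48% and 1.05% of all genes. It gave 1 higher by the Wald test, beside 0.442%. The difference between the lines gave 2 higher and 1 lower with no filter, beside 2.02% and 2.34% of all genes. By the Wald test 1 was higher, beside 1.6%. The tumour WT lines gave 1 member in each direction with a library left out (the lower one was Wnt6 without Il1f5 WT tumour 2 and Sfrp5 without Il1f9 WT tumour 2, neither among the 3 reported), 2 higher at a log2 fold change of 1 or more in size, and 9, 7 and 8 lower with no filter, by the Wald test and with the compared groups alone. The tissue difference of the Il1f5 KO effect gave 0 to 1 members higher and 0 to 4 lower, with 8, 5 and 5 lower under those 3 settings. That of the Il1f9 KO effect gave 0 to 3 higher, 2 higher and 1 lower with no filter, and 0 higher with the block or the compared groups alone. Between the tumour WT lines 8.6%, 12.6% and 18.9% of all genes were lower under those 3 settings. For the tissue difference of the Il1f5 KO effect 5.42%, 10.3% and 10.8% were. For that of the Il1f9 KO effect 3.44% were higher and 1.82% lower with no filter. With the block 0.892% were higher and with the compared groups alone 0%. The cause was not tested. Crossing the replicate numbers in the tumour Il1f9 comparison, chosen after seeing the data, gave 0 members. Groups of 2 limit these comparisons, and Wnt3, Wnt10b, Rspo1, Rspo2 and Rspo4 rest on few counts in a tissue.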
